A study of Mus musculus with 27 samples.

Results

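Silencing of 254 X-linked genes was compared between mouse embryonic stem (ES) cells with and without CIZ1, 24 h after Xist was switched on. The comparison takes 4 of the 27 samples of the series, chosen by genotype and treatment time: 2 libraries of the CIZ1 knockout line (CIZ1 KO) and 2 of the parental line (WT). All 254 genes of the deposited table that holds both lines were kept. The wider series asks how Xist silences genes and which factors it needs.

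Both lines are female ES cells of a 129S X Cast cross, so that reads can be told apart by the parental X chromosome they came from. In both, the 129S copy of Xist carries a TetOn promoter and a Bgl stem-loop array at its 3' end, and the cells were grown on mouse fibroblast feeders. Doxycycline at 1.0 to 1.5 µg/mL was given for 24 h, and the same 2 lines without doxycycline (0 h, 2 libraries each) served as background. Chromatin-associated RNA, which is rich in transcripts still being made, was sequenced, and 1 library per line of day 30 neural precursor cells (NPC) completes the 10 libraries of the table. Cells with a mutated SPOC domain of Spen (SPOCmut), of the same cross and Xist alleles and also treated for 24 h, are used once for comparison of size, with 3 libraries whose titles name different lines. The labels do not say how many knockout clones were used, so line and genotype cannot be told apart. Ciz1 is not an X-linked gene and has no row here, so its loss was not checked.

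Xist is a long noncoding RNA that coats the X chromosome from which it is transcribed and brings in repressors that shut down most genes on it. CIZ1 is a nuclear matrix protein that is enriched on Xist-coated chromosomes and is known for holding Xist RNA in place in differentiated cells. SPEN, another Xist-binding protein, represses transcription through its SPOC domain.

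Each value is an allelic ratio, read as the share of a gene's allele-assigned reads that came from the 129S X. A ratio of 0.5 means equal RNA from both X chromosomes, and a lower ratio after doxycycline means less RNA from the X with the induced Xist relative to the Cast X. In bulk RNA, partial silencing in every cell and full silencing in a part of the cells cannot be told apart. The read depth behind the ratios is unknown. Over the 254 genes, library medians at 0 h ran from 0.506 to 0.519, and at 24 h from 0.289 to 0.307. The 2 CIZ1 KO libraries at 0 h resembled each other less than other replicates did (Pearson r over genes 0.745, against 0.847 for WT at 0 h). Replicate 2 of that group stood apart, with r from 0.701 to 0.745 against the other 3 libraries at 0 h. Because all groups share 1 estimate of each gene's spread, this library also enters the errors at 24 h. Several counts below are given as ranges with any 1 library left out, this one included. Of the X-linked markers, 7 of 8 of feeder fibroblasts and 5 of 5 of ES cells had a row. The feeder markers are also expressed in part by ES cells. Their median difference at 24 h, CIZ1 KO minus WT, was 0.0284 for the feeder and 0.0511 for the ES cell markers, against 0.00882 over all genes. Ratios hold no expression level, so the share of feeder RNA cannot be measured and its part in the results was not tested.

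At 24 h the ratios of the lines lay close together, gene by gene. No gene differed between CIZ1 KO and WT in limma at an adjusted p under 0.05 (0 lower and 0 higher, a background of 0% of 254 genes in either direction). At an unadjusted p under 0.05, 4 genes were lower in CIZ1 KO (1.57%) and 21 were higher (8.27%), and the smallest adjusted p was 0.0692, for Gabra3. The library medians were 0.289 and 0.297 in WT and 0.306 and 0.307 in CIZ1 KO. Both knockout libraries lay above both WT libraries, by 0.00924 to 0.0188 over the 4 pairs, with a mean difference of 0.0140. An exact two-sided permutation test of 2 libraries against 2 gave p = 0.3333, the smallest this design allows.

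A library of CIZ1 KO differed from a library of WT about as much as 2 replicates did. Between the WT replicates the median gene differed by 0.0323, and between the CIZ1 KO replicates by 0.0247. Across the lines, the 4 pairs gave medians of 0.0307 to 0.0348. Genes that differed by more than 0.1 numbered 25 and 28 between replicates and 23 to 35 across the lines. Pearson's r over the 254 genes was 0.893 and 0.905 between replicates and 0.870 to 0.906 across lines, a description of genes that are not independent and share their libraries. The curves of pairwise differences lie close together, with the CIZ1 KO replicates somewhat nearer each other below 0.05.

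**Figure D1:**
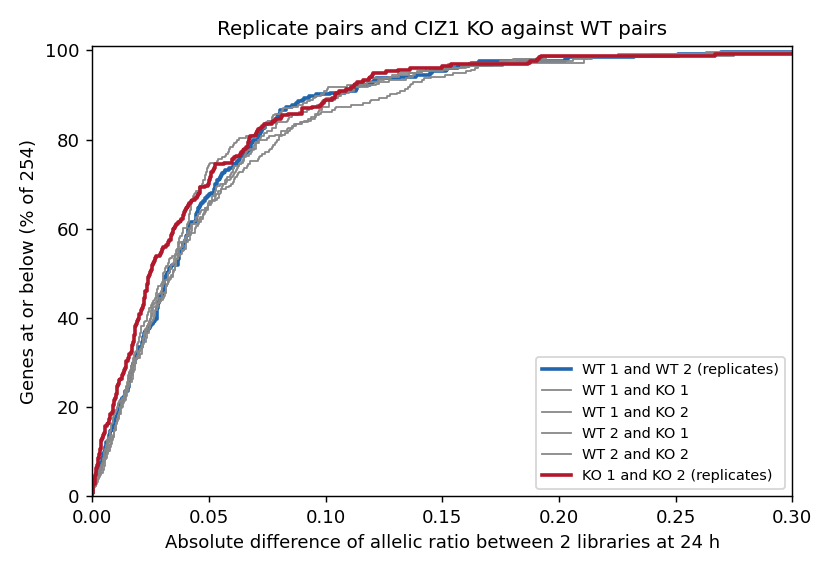
Cumulative share of the 254 genes (y axis, percent) whose allelic ratio differed between 2 libraries at 24 h by at most the value on the x axis (shown up to 0.3). The median differences are 0.0323 (WT replicates, blue), 0.0247 (CIZ1 KO replicates, red) and 0.0307 to 0.0348 (the 4 pairs across lines, grey), so the grey curves run beside the blue one.

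Genes also largely kept their place in the order of ratios at 24 h. Ratios below 0.2 at 24 h were found for 51 genes in WT and 47 in CIZ1 KO, ratios of 0.2 to 0.4 for 158 and 154, and ratios above 0.4 for 45 and 53. The class was the same in both lines for 207 genes (81.5%). The dystrophin gene Dmd stood at 0.121 and 0.149 in WT and at 0.134 and 0.132 in CIZ1 KO. Nhsl2, one of the most silenced genes, stood at 0.0647 and 0.0552 in WT and at 0.0504 and 0.0592 in CIZ1 KO. For both genes the libraries of the lines overlapped. Over group means at 24 h, Pearson's r was 0.938 and Spearman's rho 0.914 (254 genes). These levels also carry each gene's ratio before doxycycline. The falls from 0 h correlated less, with r of 0.742 and rho of 0.752.

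**Figure D2:**
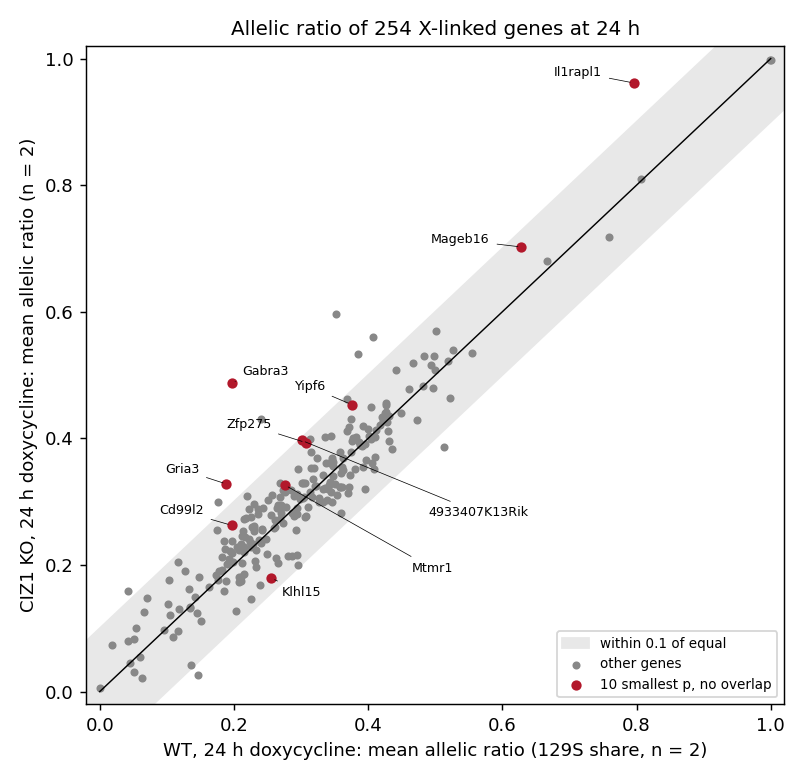
Mean allelic ratio at 24 h in WT (x axis) and CIZ1 KO (y axis), each the mean of 2 libraries, for 254 X-linked genes. The line marks equal values and the grey band a difference of 0.1, and named red points are the 10 genes with the smallest p among those whose libraries did not overlap. Most points lie in the band, and Gabra3 lies farthest above it, at 0.197 in WT and 0.488 in CIZ1 KO.

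How large a difference the data leave possible was read from each gene's 95% interval (limma, 5.83 degrees of freedom). The larger of the 2 limits, in absolute value, had a median of 0.0999 over the genes, with 0.0705 and 0.160 at the quartiles and a range of 0.0354 to 0.515. The interval lay within ±0.05 for 16 genes (6.3%), within ±0.1 for 127 (50%), within ±0.15 for 185 (72.8%) and within ±0.2 for 213 (83.9%). Equivalence tests, a pair of one-sided moderated tests per gene with Benjamini-Hochberg adjustment, placed 129 genes (50.8%) within ±0.1 and 197 (77.6%) within ±0.15. They placed 226 genes (89%) within ±0.2 and 0 within ±0.05. The count of 129 rests on all 4 libraries: it was 66 and 57 without WT 24 h replicate 1 or 2, and 0 without either CIZ1 KO library at 24 h. By the unadjusted 95% interval, the count within ±0.1 stayed at 86 to 133 with any 1 library left out.

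**Figure D3:**
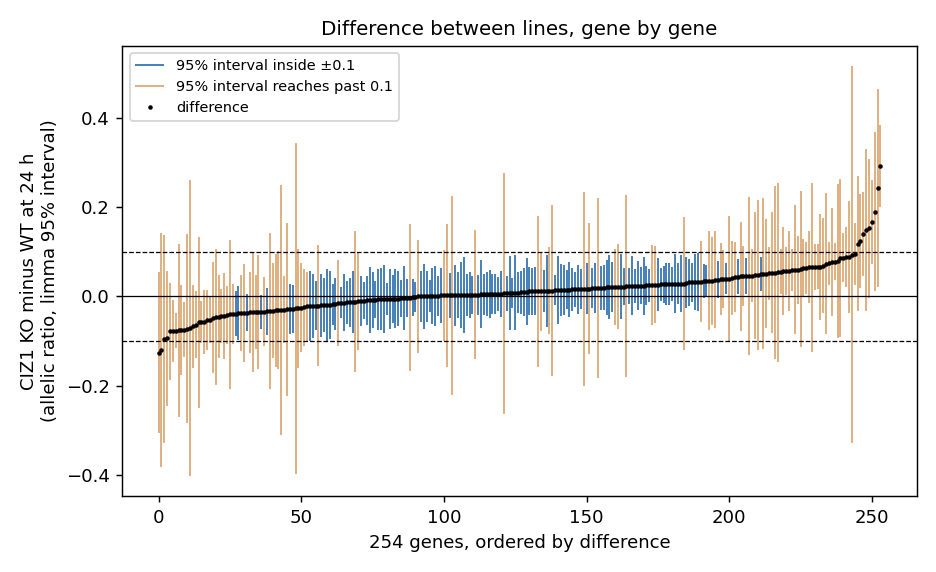
Difference in allelic ratio at 24 h, CIZ1 KO minus WT (y axis), with its 95% interval from limma, for 254 genes ordered by difference (x axis). Blue intervals (127 genes) lie within the dashed lines at ±0.1 and orange ones reach past them. The median over genes is 0.00882.

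The tightest bounds fell on genes with repeatable ratios. Ddx3x, which encodes an RNA helicase (chromosome X, 13281021 to 13293983, mm10), stood at 0.351 and 0.346 in WT and 0.356 and 0.356 in CIZ1 KO. Its difference of 0.00751 ± 0.0140 (SE) had a 95% interval of -0.0269 to 0.0419. Both knockout libraries were above both WT libraries, by less than the interval is wide.

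The deubiquitinase gene Usp9x stood at 0.357 and 0.361 in WT and at 0.341 and 0.349 in CIZ1 KO, with an interval of -0.0496 to 0.0207. Pola1, the catalytic subunit gene of DNA polymerase alpha, stood at 0.356 and 0.365 in WT and at 0.355 and 0.355 in CIZ1 KO (-0.0417 to 0.030). For Hprt, a purine salvage enzyme gene, the WT libraries at 0.408 and 0.368 enclosed the knockout libraries at 0.390 and 0.390 (-0.0430 to 0.0464). Both Pola1 and Usp9x were silenced in both lines: Pola1 fell from 0 h by 0.186 in both lines, and Usp9x by 0.166 in WT and 0.187 in CIZ1 KO.

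Tbl1x, which encodes a subunit of nuclear receptor corepressor complexes (77511226 to 77660265), had one of the 5 narrowest intervals and still leaned upward. Its WT libraries stood at 0.214 and 0.214 and its CIZ1 KO libraries at 0.253 and 0.254. The difference was 0.0398 ± 0.0144 (limma adjusted p = 0.418), with an interval of 0.00424 to 0.0753. It passed the equivalence test with a margin of 0.1 (adjusted p = 0.0152).

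At 3 genes the bound says little, because every library held reads from 1 allele only or nearly so. C330007P06Rik had a ratio of 0.997 to 1 in the 4 libraries at 24 h, Xist of 0.998 to 0.999, and Frmd7 of 0 to 0.0104. All 3 are among the 16 genes bounded within ±0.05. Without them, 124 genes passed the equivalence test at 0.1, an alternative added after the data were seen.

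Other genes were too variable to bound. Srpx, a sushi-repeat gene also used as a feeder marker, had the widest interval, -0.328 to 0.515. Its ratios at 24 h were 0.429 and 0.308 in WT and 0.538 and 0.385 in CIZ1 KO, and at 0 h its WT libraries already ran from 0.207 to 0.607. Pgrmc1, a heme-binding membrane protein gene, stood at 0.154 and 0.500 in WT and at 0.467 and 0.133 in CIZ1 KO (-0.397 to 0.343). In Pgrmc1 replicates of the same line lay farther apart than the lines did. Gspt2, a translation release factor gene, had an interval of -0.402 to 0.261, and Gm10474 one of -0.263 to 0.275. In all, 41 genes had a limit beyond 0.2.

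Short genes were bounded less well. Among the 85 shortest genes (median 7856 bp), the median limit was 0.146 and 24 passed the equivalence test at 0.1. In the 84 genes of middle length (26724 bp) the median limit was 0.0862 and 52 passed, and in the 85 longest (108087 bp) it was 0.0836 and 53 passed. Read counts per gene were not used here, so depth behind this difference was not tested. A lone gene would have needed a difference of 0.228 (median over genes, range 0.114 to 1.42) to pass the adjusted threshold of limma, and for some genes no possible ratio would reach it.

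The fall from 0 h was set beside the level at 24 h, since it takes each line's own untreated ratio as its base. WT ratios fell in 221 genes (87%) and CIZ1 KO ratios in 216 (85%), with 0 rises in either line in limma, also at an unadjusted p under 0.05. On the logit scale, 213 genes fell and 1 rose in CIZ1 KO. The 200 genes that fell in both lines make up 90.5% of the WT list and 92.6% of the CIZ1 KO list. For 37 genes the fall passed in 1 line only, and in none of these did the falls themselves differ (smallest adjusted p = 0.477, 2 at an unadjusted p under 0.05). Over 254 genes the falls of the lines, which share no library, correlated with Pearson's r of 0.742 and Spearman's rho of 0.752. The median fall over genes was 0.200 in WT and 0.207 in CIZ1 KO, and the library median fell by 0.217 and 0.208.

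The response itself, CIZ1 KO fall against WT fall, differed in 0 genes by limma's interaction test (0% of 254 each way). At an unadjusted p under 0.05 the fall was larger in CIZ1 KO in 4 genes (1.57%) and smaller in 7 (2.76%). Of all genes, 134 had a smaller fall in CIZ1 KO and 120 a larger one. The median difference of responses was 0.00283, and the response was bounded by its 95% interval within ±0.1 for 78 genes and within ±0.2 for 182. Without CIZ1 KO 0 h replicate 1, which leaves the library that stands apart alone in its group, 2 genes had a larger fall in CIZ1 KO: Ccdc160 by 0.390 and Gspt2 by 0.435 (limma adjusted p = 0.0277 for both). Without replicate 2 the count was 0.

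Relative to the WT fall, 130 of the 221 genes that fell in WT (58.8%) kept over 50% of that fall in CIZ1 KO (limma contrast, Benjamini-Hochberg). None passed at over 75% of the fall, where 52 (23.5%) had an unadjusted p under 0.05 (139, or 62.9%, at over 50%). Firre, a long noncoding RNA gene (50555743 to 50635258), fell by 0.399 in WT, from 0.631 and 0.626 to 0.236 and 0.223. In CIZ1 KO it fell by 0.392, from 0.641 and 0.651 to 0.261 and 0.247. Smarca1, a chromatin remodeller gene, ended at 0.0909 and 0.0345 in WT and at 0 and 0.0417 in CIZ1 KO, with falls of 0.456 and 0.526. Firre and Smarca1 both passed at over 50% (adjusted p = 0.00444 and 0.00507). The count of 130 ran from 64 to 109 with any 1 library left out, and was lowest without CIZ1 KO 24 h replicate 1 (64) and replicate 2 (84).

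The gene called in the other direction, with less than 50% of the WT fall, was Wdr44 (0.452% of 221), which encodes a WD-repeat protein (23693116 to 23806001). Its ratio in WT went from 0.549 and 0.688 to 0.387 and 0.429. In CIZ1 KO it went from 0.524 and 0.370 to 0.556 and 0.565. Both treated WT libraries thus lay below both untreated ones, and both treated knockout libraries above theirs. The untreated knockout libraries of Wdr44 lay far apart, and its call was not examined without either of them. The adjustment for this call also covered the genes that passed the other way, 130 of 221. At 0 h the difference between the lines was -0.171 ± 0.0633 (limma adjusted p = 0.663). The difference of responses was 0.324 ± 0.0896 (limma adjusted p = 0.747), and the difference at 24 h was 0.153 ± 0.0633, with an interval of -0.00357 to 0.309.

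Within the gene groups, chosen with earlier results of these data known, no member differed at 24 h in limma (background 0% each way). Their counts at an unadjusted p under 0.05 stand against 8.27% higher and 1.57% lower over all genes, and their medians against 0.00882. At the X inactivation centre 3 genes were measured besides Xist itself. Tsix, the antisense partner of Xist (103431516 to 103484957), stood at 0.230 and 0.199 in WT and at 0.229 and 0.229 in CIZ1 KO (difference 0.0147 ± 0.0177, interval -0.0289 to 0.0583). Chic1 stood at 0.228 and 0.257 in WT and at 0.263 and 0.246 in CIZ1 KO. The lines overlapped for both genes, with the reservation that reads of Tsix and Xist may be hard to separate where the genes overlap.

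Nap1l2, a nucleosome assembly protein gene beside Xist, was near silent in WT, at 0.0370 and 0 against 0.0606 and 0.0857 in CIZ1 KO. Its difference of 0.0546 ± 0.0204 did not pass (limma adjusted p = 0.418). At 0 h its ratio was already higher in CIZ1 KO, at 0.356 and 0.3333 against 0.250 and 0.239. The knockout was thus above WT at both times, and the fall was 0.226 in WT and 0.272 in CIZ1 KO.

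Of 8 genes known to escape X inactivation, 7 passed the equivalence test at 0.1 (50.8% over all genes), with a median difference of 0.00539. In these cells most of the 8 fell after doxycycline, 7 in WT and 7 in CIZ1 KO, with median falls of 0.145 and 0.127. Kdm6a, a histone demethylase gene (18162666 to 18279358), had a ratio of 0.526 and 0.527 in WT and of 0.540 and 0.541 in CIZ1 KO at 24 h. That difference of 0.0139 ± 0.0138 had an interval of -0.0202 to 0.0480, and Kdm6a was above WT at 0 h as well, at 0.581 and 0.582 against 0.553 and 0.558. The eighth member was 4933407K13Rik, a long noncoding transcript gene (75725457 to 75764699), at 0.293 and 0.309 in WT and 0.406 and 0.388 in CIZ1 KO. Its libraries did not overlap at 24 h, and its difference was 0.0955 ± 0.0283 (limma adjusted p = 0.418). At 0 h the order was the opposite, 0.537 and 0.504 in WT against 0.476 and 0.402 in CIZ1 KO, so the falls were 0.219 and 0.0421 (response adjusted p = 0.477).

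Of 28 genes of chromatin and transcription, 20 were bounded within ±0.1 (50.8% over all genes), and 0 had an unadjusted p under 0.05. The median difference was -0.00509. Zfp449, a zinc finger gene, had the lowest difference of all genes, -0.126 ± 0.0733, from 0.479 and 0.547 in WT and 0.372 and 0.402 in CIZ1 KO (limma adjusted p = 0.675). Zfp449 fell in neither line.

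Of 22 genes of RNA processing and translation, 14 were bounded within ±0.1, where the share over all genes was 50.8%. At an unadjusted p, the splicing regulator gene Mbnl3 was higher and Upf3b, a factor of nonsense-mediated decay, lower. Mbnl3 stood at 0.125 and 0.357 in WT and at 0.40 and 0.462 in CIZ1 KO, a difference of 0.190 ± 0.0721 (limma adjusted p = 0.424). The WT replicates of Mbnl3 lay farther apart than the group means. Upf3b stood at 0.404 and 0.414 in WT and at 0.335 and 0.368 in CIZ1 KO, a difference of -0.0578 ± 0.0194 (adjusted p = 0.418).

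Among 12 genes of ubiquitin and proteolysis, 10 were bounded within ±0.1 (50.8% over all genes) and 10 kept over 50% of the WT fall (58.8% of all genes that fell in WT). Of the 12 genes, 6 were higher in CIZ1 KO at any size, and 1, Klhl15, was lower at an unadjusted p. Klhl15 is a substrate adaptor gene of a ubiquitin ligase (94234929 to 94255968). Its ratios were 0.263 and 0.249 in WT and 0.170 and 0.189 in CIZ1 KO, while at 0 h the libraries ran from 0.511 to 0.545. The difference at 24 h was -0.0766 ± 0.0163 (limma adjusted p = 0.325) and that of the responses -0.0987 ± 0.0230 (adjusted p = 0.477).

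Of 29 metabolic and mitochondrial genes, 15 were bounded within ±0.1 (50.8% over all genes), 3 were higher at an unadjusted p and 0 lower. The median difference was 8.33e-05. Ebp, a sterol isomerase gene, stood at 0.188 and 0.262 in WT and at 0.122 and 0.172 in CIZ1 KO (-0.0783 ± 0.0441, limma adjusted p = 0.655). Mtmr1, a myotubularin-related phosphatase gene, stood at 0.268 and 0.284 in WT and at 0.327 and 0.325 in CIZ1 KO, and yet passed the equivalence test at 0.1 (adjusted p = 0.0237).

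In 13 genes of pluripotency, early development and germline the median difference was 0.0270, with 1 gene higher at an unadjusted p. That gene was Mageb16, of a germline family whose copies may share reads, at 0.618 and 0.639 in WT and 0.712 and 0.693 in CIZ1 KO (0.0738 ± 0.0192, limma adjusted p = 0.384). Gpc3, a glypican gene, had the tightest bound: 0.216 and 0.209 in WT against 0.203 and 0.203 in CIZ1 KO. Nr0b1, a nuclear receptor gene of ES cells, stood at 0.0707 and 0.0714 in WT and 0.178 and 0.118 in CIZ1 KO (0.0771 ± 0.0494, adjusted p = 0.720).

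The list of 24 neural, axon and synapse genes held 5 of the 21 genes that were higher at an unadjusted p, and its median difference was 0.0166. It includes Gabra3, Il1rapl1 and Gria3, which are described below, and Dmd, whose libraries overlapped. L1cam, a cell adhesion gene, stood at 0.167 and 0.100 in WT and at 0.194 and 0.130 in CIZ1 KO, with overlapping libraries. Among 19 genes listed for feeder fibroblasts, a list not specific to these cells, 2 were higher at an unadjusted p and 1 lower. Of the 19, 8 were bounded within ±0.1 (50.8% over all genes). Il13ra1, an interleukin receptor gene of that list, stood at 0.318 and 0.273 in WT and at 0.0667 and 0.3333 in CIZ1 KO, so its knockout replicates enclosed the WT libraries.

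The genes nearest to a difference were mostly higher in CIZ1 KO at 24 h, many of them at 0 h too. Libraries of the lines did not overlap at 24 h in 68 genes with CIZ1 KO higher (26.8% of 254) and 34 with CIZ1 KO lower (13.4%). Of the 10 genes with the smallest p among those without overlap at 24 h, 9 were higher in CIZ1 KO, and none passed the adjusted threshold.

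Gabra3, which encodes a GABA receptor subunit (72432675 to 72656246), came closest. At 24 h it stood at 0.156 and 0.237 in WT and at 0.500 and 0.476 in CIZ1 KO, a difference of 0.292 ± 0.0374 (interval 0.199 to 0.384, limma adjusted p = 0.0692). At 0 h it stood at 0.703 and 0.627 in WT and at 0.765 and 0.800 in CIZ1 KO. The knockout libraries were thus higher at both times without overlap, and the difference of the falls, 0.468 against 0.294, did not pass (0.174 ± 0.0529, adjusted p = 0.851). The 2 NPC libraries gave 0 for WT and 0.0526 for CIZ1 KO.

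Yipf6, which encodes a Golgi membrane protein (98937780 to 98949020), stood at 0.366 and 0.385 in WT and at 0.445 and 0.462 in CIZ1 KO (0.0779 ± 0.0170, limma adjusted p = 0.325). It was not higher at 0 h, at 0.538 and 0.541 in WT against 0.504 and 0.527 in CIZ1 KO. Its fall was 0.164 in WT and 0.0617 in CIZ1 KO (response adjusted p = 0.477).

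Il1rapl1, a synaptic receptor gene, was strongly biased to 129S already at 0 h, at 0.95 and 0.863 in WT and 0.949 and 0.977 in CIZ1 KO. At 24 h it stood at 0.806 and 0.786 in WT and at 1 and 0.923 in CIZ1 KO. Gria3, a glutamate receptor subunit gene, went to 0.208 and 0.169 in WT and to 0.276 and 0.380 in CIZ1 KO. Its libraries did not overlap at 0 h either, 0.477 and 0.510 against 0.561 and 0.600.

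Zfp275, a zinc finger gene, stood at 0.321 and 0.293 in WT and 0.416 and 0.371 in CIZ1 KO. Cd99l2, a cell surface protein gene, stood at 0.186 and 0.207 in WT and 0.284 and 0.241 in CIZ1 KO, while its falls were 0.335 and 0.334. The 2 falls of Cd99l2 were alike because its knockout ratio was also higher at 0 h, at 0.606 and 0.588 against 0.532 and 0.531. C430049B03Rik, a noncoding host transcript gene, had the second largest difference, 0.243 ± 0.0900 (adjusted p = 0.418), from WT libraries at 0.478 and 0.227 and CIZ1 KO libraries at 0.636 and 0.556.

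**Figure D4:**
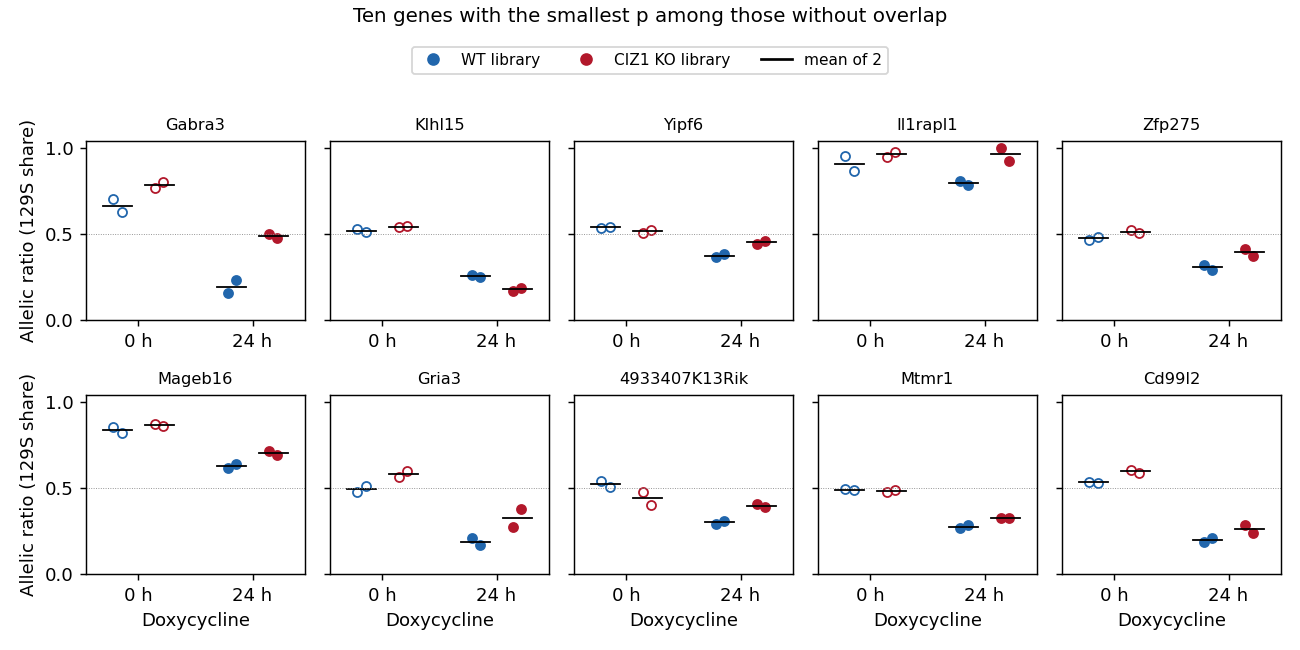
Allelic ratio (129S share, y axis) of each library at 0 h (open circles) and 24 h (filled circles) in WT (blue) and CIZ1 KO (red) for the 10 genes with the smallest p at 24 h among those whose libraries did not overlap. Bars are means of 2 libraries and the dotted line marks 0.5. Klhl15 is the only one of the 10 that is lower in CIZ1 KO at 24 h. At 0 h Gabra3, Klhl15, Zfp275, Mageb16, Gria3 and Cd99l2 are higher in CIZ1 KO without overlap.

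Besides Klhl15 and Upf3b, Gripap1, which encodes a protein of synaptic endosomes, was among the genes lower in CIZ1 KO at an unadjusted p, and it is named after its values were seen. Gripap1 stood at 0.258 and 0.330 in WT and at 0.195 and 0.237 in CIZ1 KO. Its libraries did not overlap, and its difference was -0.0777 ± 0.0282 (limma adjusted p = 0.418). The largest downward differences after Zfp449 were those of Ccdc160, at 0.143 and 0.15 in WT and 0 and 0.0526 in CIZ1 KO, Il13ra1, with values given above, and Igsf1, at 0.0923 and 0.179 against 0.0270 and 0.0566.

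Counted gene by gene, a lean toward higher ratios in CIZ1 KO was present before doxycycline, but it was smaller in the library medians. Of 254 genes, 158 (62.2%) were higher in CIZ1 KO at 24 h and 157 (61.8%) at 0 h, and the median difference was 0.00882 at 24 h and 0.00903 at 0 h. Without doxycycline 0 genes differed in limma (0% each way). At an unadjusted p under 0.05, 4 genes were lower (1.57%) and 12 were higher (4.72%). Of the 21 genes higher at 24 h at an unadjusted p, 17 were also higher at 0 h, and of the 4 lower genes 2 were also lower. Libraries at 0 h did not overlap in 78 genes with CIZ1 KO higher (30.7%) and 28 with CIZ1 KO lower (11%). The library medians at 0 h overlapped, at 0.515 ± 0.00530 in CIZ1 KO and 0.509 ± 0.00496 in WT (SD, n = 2 each, exact permutation p = 0.667). Their difference was 0.00551, with pairs from -0.00174 to 0.0128, against 0.0140 at 24 h. Set against the 2 WT libraries at 0 h, the median gene differed by 0.00441 and 0.00748 in CIZ1 KO replicate 1. In replicate 2, the library that stood apart, it differed by 0.0112 and 0.0148. Without CIZ1 KO 0 h replicate 1, 4 genes differed at 0 h (1 lower and 3 higher).

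In NPC, with 1 library per line and so no test, the median ratio was 0.0546 in WT and 0.0830 in CIZ1 KO. There 153 genes were higher in CIZ1 KO, 86 lower and 15 equal. Of the 21 genes higher at 24 h at an unadjusted p, 15 were higher in the CIZ1 KO NPC library as well, and 2 of the 4 lower ones were lower.

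Along the X, the difference at 24 h had no trend with distance to Xist (Spearman's rho over genes -0.0446), but the genes with small p were not spread evenly. Of 88 genes that start before 40 Mb, 0 were higher in CIZ1 KO at an unadjusted p under 0.05 and 2 were lower. Of 140 genes from 40 to 100 Mb, 19 were higher and 2 lower, 10 of the 19 between 60 and 80 Mb, where Gabra3, Zfp275, Mtmr1, Cd99l2 and 4933407K13Rik lie. These counts of small p were not tested against each other. From 40 to 60 Mb, the stretch with Mbnl3, Firre and Gria3, the median over 45 genes was 0.236 and 0.239 in the WT libraries and 0.285 and 0.262 in the CIZ1 KO libraries. All 4 pairs there were higher in CIZ1 KO, by 0.0229 to 0.0489, and they were higher at 0 h too, by 0.00779 to 0.0202. From 20 to 40 Mb, over 34 genes, all 4 pairs were lower in CIZ1 KO at 24 h, with differences of -0.0240 to -0.00888. In the 26 genes from 100 Mb to Xist, the lines overlapped, with a median difference of 0.00106.

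**Figure D5:**
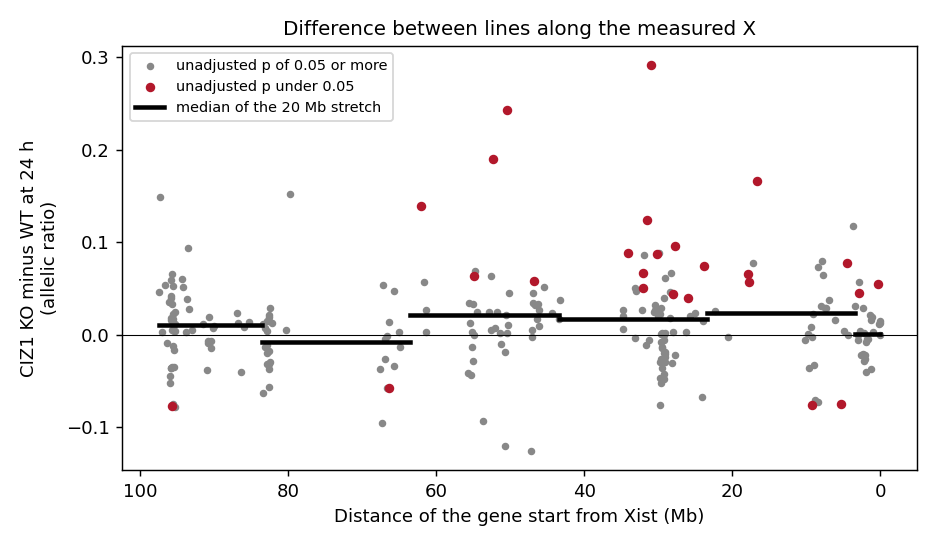
Difference in allelic ratio at 24 h, CIZ1 KO minus WT (y axis), of 254 genes against the distance of their start from Xist in Mb (x axis, Xist at the right). Red points have an unadjusted p under 0.05, and black bars are medians of stretches of 20 Mb, which run from -0.00797 to 0.0238.

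The size of these differences can be read beside cells in which a silencing factor is altered. In SPOCmut cells, 213 of 270 genes were higher than in the same WT libraries at 24 h (78.9%) and 1 was lower (0.37%) in limma. Over the 248 genes in both tables, the median difference was 0.133 for SPOCmut and 0.00824 for CIZ1 KO, with 205 and 0 genes called. The median half-width of the 95% interval was 0.0522 for SPOCmut, with 3 libraries, and 0.0674 for CIZ1 KO. The 3 SPOCmut libraries carry different line names, whereas the 2 CIZ1 KO libraries carry 1 name, so their spreads are not of the same kind. The comparisons share their WT libraries, and SPOCmut was not tested against CIZ1 KO.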

How the data were processed

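Allelic ratios of chromatin-associated RNA were taken from the table that holds WT and CIZ1 KO, 254 X-linked genes in 10 libraries (2 of each line at 0 h and at 24 h, 1 of each as NPC). Each deposited value is a fraction between 0 and 1, which the authors name an allelic ratio in the series' design text. The library kit keeps strand, per the labels' protocols. In the submitters' processing notes, without roles, stand edgeR, bedtools, SAMtools, featureCounts, STAR 2.4.2a and Bowtie2 2.3.2, with mm10 as the build. No source used here gives the formula of the ratio, the gene filter or whether counting used strand. The ratio was read as the 129S share because Xist, induced from 129S, lies near 1. Treated columns of this table name no time and were taken as 24 h, the only treatment time the labels give for CIZ1 KO. The fraction comes without read counts, so depth is unknown and no counting interval is given.

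From these ratios, untransformed and for all 10 libraries at once, group means were estimated with limma 3.58.1 (R 4.3.3). The fit had no replicate block. P-values were adjusted over all 254 genes by Benjamini and Hochberg, and 0.05 was the threshold for a call. Contrasts were CIZ1 KO minus WT at 24 h and at 0 h, each line's change, their difference (the response) and the CIZ1 KO change minus 50% or 75% of the WT change. Equivalence was tested in the same fit with margins of 0.05, 0.1, 0.15 and 0.2. Library medians were compared by exact two-sided permutation tests. Alternatives were the logit scale, fits on fewer libraries, Benjamini-Yekutieli adjustment, robust and trended variances, a replicate block, gene filters and leaving out each library in turn. The script was tested on simulated data. Nothing in the labels says that replicates came from separate cultures, so the spread behind the p-values may be technical only. SPOCmut was fitted in its own table of 270 genes, which shares 4 WT libraries and 248 genes.

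Named are, by rule: the 10 smallest p at 24 h among genes whose libraries do not overlap, the 5 largest differences each way, the 5 narrowest and 5 widest intervals, the 5 largest and smallest WT falls, 8 preset genes, the best bounded and most different gene of each of 9 lists, and the 5 largest differences of response each way. The members, gene lists and rules were chosen with earlier results of these data known. Coordinates are those deposited with the ratios. In GENCODE vM21, 243 of 254 symbols lie at the same locus and strand, and 66 of the 254 genes overlap a gene on the other strand. The table of chromosome 15 genes was not used here.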

Additional observations from a re-analysis of the deposited data

Results flagged for a closer look

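Wdr44 was the only gene where every library of one line moved opposite to every library of the other. Both WT libraries at 24 h lay below both at 0 h, and both CIZ1 KO libraries at 24 h lay above both at 0 h, so that the difference of responses was 0.324 ± 0.0896 (SE; limma unadjusted p = 0.0118, adjusted p = 0.747). The 4 libraries at 0 h ranged from 0.370 to 0.688, and the lone NPC libraries stood at 0.241 in WT and 0.158 in CIZ1 KO.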

How the results depend on the processing

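The result of 0 genes differing between CIZ1 KO and WT at 24 h held under all 9 other settings. Some of these could not change it. Benjamini-Yekutieli adjustment is stricter than the main one. The fit on the 8 ES libraries repeats the main fit, since a lone NPC library per line adds no spread. Of 137 alternative values of the results that answer a comparison, 127 stayed near the value as reported. For counts, near meant within a fixed fold of the reported count, whatever the direction of the genes. For the difference of library medians it meant the same sign and a shift below the larger SD of the lines. Some of the 127, such as those of the repeated fit, could not move. With Benjamini-Yekutieli adjustment the number of genes bounded within ±0.1 by the equivalence test was 0 (129 as reported) and the number keeping over 50% of the WT fall was 12 (130). With 1 library left out, these counts ran from 0 to 137 and from 64 to 109, the genes with a differing response numbered 0 to 2 and those differing at 0 h 0 to 4. Where this leaves 1 library in a group, that library is assumed to vary like the others. Replicate numbers did not pair the libraries (correlations of deviations -0.170 to 0.100). With a replicate block on the 8 ES libraries 0 genes differed at 24 h, 117 were bounded within ±0.1 and 116 kept over 50% of the WT fall. Of 542 values of named genes under other settings, only those on the logit scale could turn sign. The remaining settings leave each gene's difference of means as it is and change its error or adjustment only. On the logit scale the response of Tsix turned sign, at 0.0160 (-0.00442 as reported). The differences of Xist and C330007P06Rik at 24 h were 0 on that scale to within rounding, and the other logit values kept their sign.

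Small or noisy differences turned sign with 1 library left out. The difference at 24 h ran from -0.00224 to 0.0266 for Chic1, -0.0401 to 0.0735 for Eras, -0.0477 to 0.155 for Dgkk, -0.0161 to 0.0117 for Dmd, -0.0593 to 0.0721 for Gm10474 and -0.0184 to 0.0217 for Hprt. It ran from -0.00463 to 0.0620 for L1cam, -0.20 to 0.146 for Pgrmc1, -0.000768 to 0.0302 for Tsix, -0.000193 to 0.000152 for Xist, -0.182 to 0.122 for Zfp300, -0.229 to 0.0379 for Il13ra1 and -0.0232 to 0.0292 for Vbp1. The response ran from -0.0199 to 0.0111 for Tsix, -0.387 to 0.0130 for Srpx, -0.00385 to 0.0250 for Chic1, -0.435 to 0.0145 for Gspt2 and -2.77e-05 to 0.0144 for Firre. Read depth is unknown, so what limits each interval was not tested.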

Other observations

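Genes were also split by how far WT had gone at 3 h, measured in the separate table that holds those libraries. In the third of 83 genes that had fallen most by 3 h, the WT and CIZ1 KO falls at 24 h had medians of 0.257 and 0.235, and 9 genes were higher in CIZ1 KO at 24 h at an unadjusted p under 0.05 in limma (2 lower). In the 82 genes between, the medians were 0.198 and 0.187, with 7 higher and 1 lower. In the third of 83 that had fallen least or risen, the medians were 0.167 and 0.193, with 3 higher and 1 lower. The median difference between the lines at 24 h was 0.00214, 0.0150 and 0.00521 in these groups, in this order, with no steady trend. WT at 0 h enters both the split and the falls, so the medians of the falls are a description, with no test.

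Genes with the largest differences of response after Wdr44 were Eras, a Ras-family gene of ES cells (0.199 ± 0.125), C430049B03Rik (0.196 ± 0.127) and Dgkk, a diacylglycerol kinase gene (0.190 ± 0.115). In the other direction they were Il13ra1 (-0.214 ± 0.134), Ccdc160 (-0.213 ± 0.15), Gspt2 (-0.210 ± 0.190), Igsf1 (-0.208 ± 0.0868) and Srpx (-0.187 ± 0.242). Their adjusted p in limma ran from 0.851 to 0.915. Nudt10, whose fall in WT was 0.00468, stood at 0.368 and 0.40 in WT at 24 h and at 0.500 and 0.565 in CIZ1 KO, a difference of 0.148 ± 0.0738 (adjusted p = 0.635).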
